A study of Arabidopsis thaliana with 4 samples.

Results

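The genes described here encode small secreted or membrane-associated signalling peptides of Arabidopsis thaliana. They are the genes whose symbol, in the platform's annotation or in the reference annotation TAIR10.1, begins with RALFL, CLE, EPFL, IDL, RTFL, DVL, CEP or GASA followed by a number, and which were paired with a probe set of their own. The rule gave 41 of the 16548 genes that had such a probe set. Of these 18 belong to the RALF family, 16 to the CLE family, 5 to the RTFL and DVL family and 2 to the IDL family. The reference held 32 RALF, 30 CLE, 23 RTFL or DVL and 5 IDL symbols of this form, so each family was measured only in part. No gene with an EPFL, CEP or GASA symbol was paired with a probe set in the tables used here, so these families were not analysed. The reference held 0 EPFL symbols, so EPFL genes under other names would not have been found. Each of the 41 genes had 1 probe set, none of these had values identical to those of another probe set, and the numbers of all 41 placed them beside probe sets of their own chromosome.

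RNA came from whole seeds, 10 mg of dry seed per sample, held for 4 days in 0.5 MS, a liquid medium for plant culture, to which 2 µM abscisic acid (ABA) had been added. ABA is the hormone that holds back germination. The 2 groups were wild-type seeds of the accession Ler-0 and seeds of the mutant wrky43-1, with 2 biological replicates each and 1 array per replicate. Both groups received ABA, and no seeds without the hormone were among the samples. The mutated gene, WRKY43, encodes a transcription factor of the WRKY family, which bind W-box sequences. It had no probe set of its own in the tables used here, so the genotype labels could not be checked on the arrays. The question of the design is how the seed transcripts of the mutant differ from those of wild type.

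Small signalling peptides are made as longer precursors, often trimmed by proteases, and carry messages between neighbouring cells by binding receptors at the cell surface. RALF peptides raise the pH of the cell wall and are perceived by receptor kinases of the FERONIA family together with small membrane-anchored partners, and they also bind the leucine-rich repeat extensins (LRX) of the wall. CLE peptides are short peptides that bind leucine-rich repeat receptor kinases and control stem cells, vascular tissue and root growth. IDL peptides are relatives of IDA, the peptide that triggers the shedding of floral organs, and RTFL or DVL proteins restrict the growth of organs when overproduced.

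The deposited values were read as log2, so a difference of 1 is a 2-fold difference. The medians of the 4 arrays differed by 0.088, and values were used as deposited. Of 13 listed seed reserve genes 2 were measured. These 2, the storage protein gene PAP85 and the oleosin gene OLEO3, read 12.63 to 12.89 and 7.17 to 7.28 over the 4 arrays. Neither passed the test between genotypes (limma adjusted p = 0.493 and 0.766). In each of them both mutant arrays lay below both wild-type arrays, as in 25.0% of all genes with a probe set of their own. The pollen markers VGD1 and VGDH1 lay below the array median on all 4 arrays, at 2.66 to 3.19, as did the root hair markers EXPA7 and EXPA18, at 2.62 to 3.24. The green seedling genes LHCB4.1 and RCA read 8.47 to 8.99 and 8.69 to 8.93, above OLEO3, and PRK read 3.53 to 5.05. In bulk seed RNA, fewer cells of a type and less RNA per cell cannot be told apart.

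Of the 41 peptide genes 0 were higher and 0 were lower in wrky43-1 at an adjusted p under 0.05 in limma, with p adjusted over all probe sets. Over all 38408 probe sets 0.00260% were called higher and 0% lower, so a count of 0 among 41 genes is near the background. The smallest adjusted p of a peptide gene was 0.213. At an unadjusted p under 0.05, 2 genes read higher, CLE20 and RALFL34, and 2 read lower, CLE14 and CLE1. At that threshold 9.05% of all probe sets read higher and 6.93% lower, or 5.44% and 6.08% of all genes with a probe set of their own, and the shares among the peptide genes, 2 of 41 in each direction, lie near these. Without wild-type replicate 1 the counts were 0 higher and 2 lower, without wild-type replicate 2 they were 0 and 0, without wrky43-1 replicate 1 they were 0 and 1, and without wrky43-1 replicate 2 they were 3 and 0. Those fits have fewer residual degrees of freedom.

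The peptide genes were evenly split in direction. In wrky43-1, 20 read higher and 21 lower, with a median log2 difference of -0.0012 against -0.015 over all genes with a probe set of their own and 0.00093 over all probe sets. With all arrays set to one median the split was 14 higher and 27 lower, and with quantile normalization it was 17 and 24, so the even split depends on how the arrays are scaled. It also moved the other way, to 14 higher and 7 lower among the 21 genes left without the lowest 30% of probe sets, to 8 and 1 among the 9 left without the lowest 50%, and to 26 and 15 without wrky43-1 replicate 2. Most differences were small. Of the 41 genes 34 differed by less than 0.25 and 4 by more than 0.5, and the middle 50% of them lay between -0.095 and 0.11. Over all 16548 genes 11580 differed by less than 0.25 and 6.48% by more than 0.5, with a middle 50% from -0.17 to 0.14. Among the 8722 genes below the array median on all 4 arrays, 6729 differed by less than 0.25. In 14 of the 41 genes (34.1%), 7 in each direction, the genotypes did not overlap, against 48.1% of all probe sets and 46.6% of all genes. The share was 38.3% among genes no longer than the median peptide gene and 35.2% among genes below the array median on all 4 arrays. By direction the background was 24.5% higher and 23.6% lower over all probe sets, and 21.7% and 25.0% over all genes. The intervals show how large a difference in probe set value these arrays could still have missed. For 40 of 41 genes the 95% interval of the difference lay within -1 and 1, the exception being CLE1. Such an interval left out a 2-fold difference of that value in either direction, and 15308 of all 16548 genes had one. For 13 of the 41 it lay within -0.5 and 0.5, as for 5392 of all genes. These intervals are for each gene alone. They do not bound the difference in transcript for weak probe sets, since no detection calls were used.

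**Figure D1:**
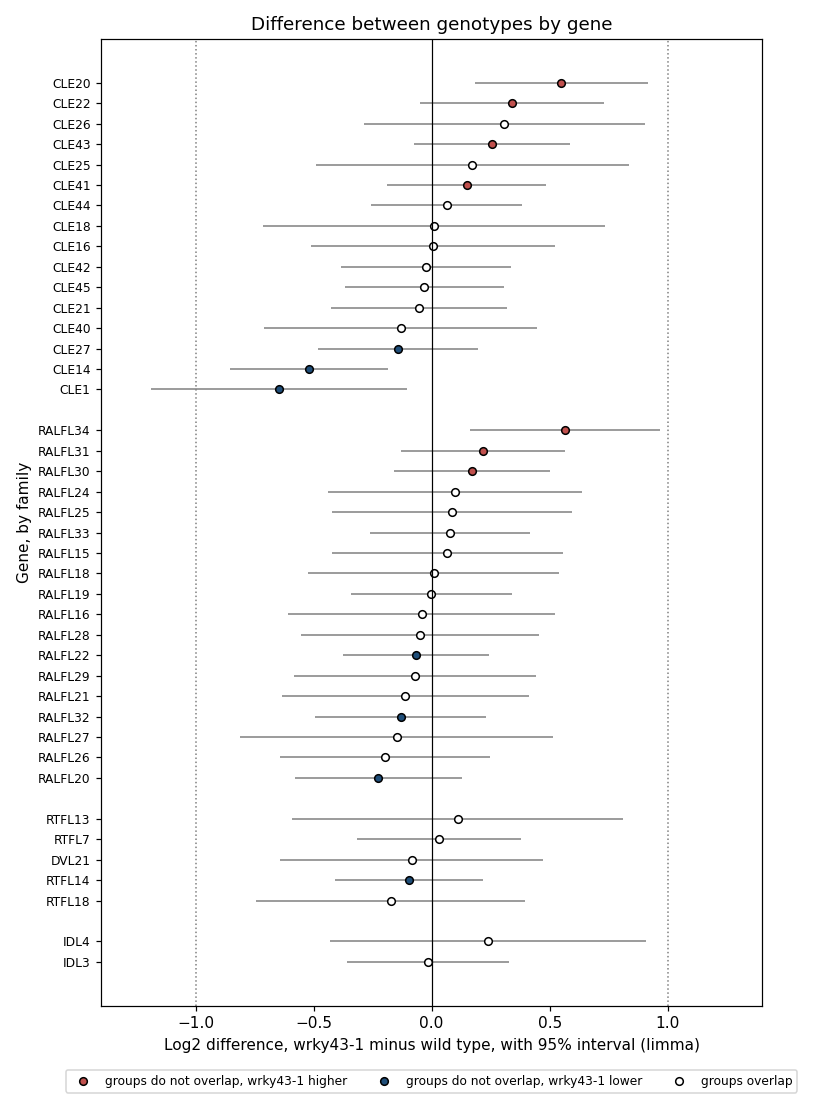
Log2 difference between genotypes (horizontal axis, wrky43-1 minus wild type) for the 41 genes, grouped by family and ordered by value. Points are differences of means of 2 arrays per genotype, bars are 95% intervals from limma, and dotted lines mark -1 and 1. Filled points are the 14 genes whose groups do not overlap, and the bar of CLE1 alone passes a dotted line.

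Among the CLE genes, CLE14 (AT1G63245), which encodes a peptide known to halt root meristem growth under phosphate shortage, read 3.78 and 3.86 in wild type and 3.36 and 3.24 in wrky43-1. Both mutant arrays were below both wild-type arrays, and the difference was more than the gap between replicates of either genotype. The log2 difference was -0.52 (SE 0.12, limma adjusted p = 0.213, unadjusted p = 0.0115). CLE1 (AT1G73165) belongs to a group of root CLE genes that respond to nitrogen supply. It read 4.18 and 4.66 in wild type and 3.79 and 3.75 in wrky43-1, a log2 difference of -0.65 (SE 0.20, limma adjusted p = 0.262). Its wild-type arrays lay 0.49 apart, and its difference was -0.89 without wild-type replicate 1 and -0.40 without wild-type replicate 2. CLE20 (AT1G05065), whose peptide halts root growth when overproduced or applied, read in the other direction, with 4.81 and 4.78 in wild type and 5.46 and 5.24 in wrky43-1. Both mutant arrays were above both wild-type arrays, by a log2 difference of 0.55 (SE 0.14, limma adjusted p = 0.218). The 3 genes thus differed in opposite directions by 1.43-fold to 1.57-fold, and none passed the adjusted threshold.

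CLE22 read 2.83 and 3.09 in wild type and 3.31 and 3.29 in wrky43-1 (log2 difference 0.34, SE 0.14). CLE43 read 4.16 and 4.03 against 4.37 and 4.32 (0.25, SE 0.12). In both genes the groups did not overlap, and the unadjusted p was 0.073 and 0.1. CLE41 encodes the peptide TDIF, which keeps vascular stem cells dividing through the receptor PXY. It read 6.97 and 7.05 in wild type and 7.22 and 7.09 in wrky43-1, without overlap but with a log2 difference of only 0.15 (SE 0.12). CLE44, which encodes the same mature peptide, had overlapping groups and a log2 difference of 0.06 (SE 0.12), and CLE42, which encodes a close variant, had one of -0.02 (SE 0.13). For these 3 genes the 95% intervals lay between -0.38 and 0.48. CLE26, a root peptide gene, read 2.92 and 2.81 in wild type and 3.45 and 2.90 in wrky43-1, so that only 1 mutant array stood above wild type.

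The remaining 9 CLE genes had differences from -0.14 to 0.17, and their groups overlapped in 8. The exception was CLE27, which read 3.11 and 3.28 in wild type and 3.05 on both mutant arrays. CLE25 encodes a peptide reported to travel from dehydrated roots to leaves and to raise ABA synthesis there. It read 5.51 and 4.87 in wild type and 5.39 and 5.33 in wrky43-1, and the 2 wild-type arrays enclosed both mutant arrays. CLE40, which encodes a relative of CLAVATA3 that acts on root stem cells with the receptor kinase ACR4, read 3.06 and 2.86 against 3.08 and 2.58. CLE45, a peptide gene of the root phloem, differed by -0.03 (SE 0.13). CLE16, CLE18 and CLE21 differed by 0.01, 0.01 and -0.05. In CLE18 the wild-type arrays lay 0.72 apart, the widest gap between replicates among the 41 genes.

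**Figure D2:**
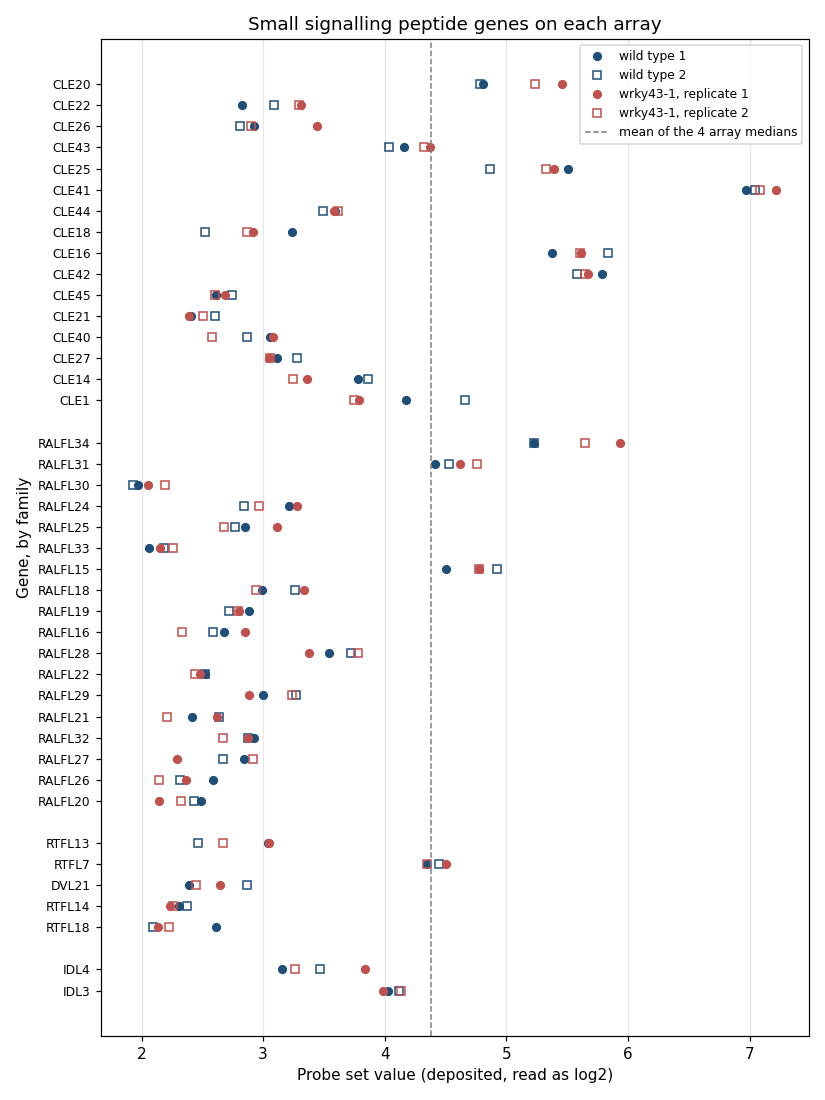
Deposited values, read as log2 (horizontal axis), of the 41 peptide genes on each of the 4 arrays, grouped by family and ordered by the difference between genotypes. Blue marks are wild type, red marks wrky43-1, and the dashed line is the mean of the 4 array medians. The genotypes separate in 14 genes, and 31 genes lie below the median of each array.

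Among the RALF genes, RALFL34 (AT5G67070) had the largest difference. RALF34 takes part in the start of lateral roots and is a ligand of THESEUS1, a receptor kinase of the FERONIA family. Its probe set read 5.22 and 5.23 in wild type and 5.93 and 5.65 in wrky43-1. Both mutant arrays were above both wild-type arrays, which differed from each other by 0.0049. The log2 difference was 0.56 (SE 0.15, limma adjusted p = 0.23, unadjusted p = 0.0168), or 1.48-fold, and it was 0.42 without wrky43-1 replicate 1 and 0.71 without wrky43-1 replicate 2.

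RALFL31 read 4.41 and 4.53 in wild type and 4.62 and 4.76 in wrky43-1 (log2 difference 0.22, SE 0.13). RALFL30 read 1.97 and 1.93 against 2.06 and 2.19 (0.17, SE 0.12). RALFL20 read 2.49 and 2.43 against 2.14 and 2.33 (-0.23, SE 0.13), the lowest difference of the family. In these 3 genes the groups did not overlap, and their unadjusted p ranged from 0.154 to 0.233. RALFL26 read 2.59 and 2.31 in wild type and 2.37 and 2.14 in wrky43-1, with overlap. Its neighbour in the reference annotation, RALFL25, with no coding gene between them, differed by 0.08 (SE 0.19), in the other direction. Whether probes of these related genes bind each other's transcripts was not tested.

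The remaining 13 RALF genes had differences from -0.15 to 0.10, with overlapping groups in 11. RALFL22, a RALF gene linked to salt responses through FERONIA and the LRX proteins, read 2.53 and 2.52 in wild type and 2.48 and 2.44 in wrky43-1. Its groups did not overlap although the difference was only -0.07 (SE 0.11). RALFL32 was the other gene without overlap (-0.13, SE 0.13). RALFL33 read 2.06 and 2.19 against 2.15 and 2.26, with overlap. RALFL19, a pollen peptide gene that keeps pollen tubes intact through ANX1 and ANX2, differed by -0.0012 (SE 0.13), and RALFL16, another pollen gene, differed by -0.04 (SE 0.21). RALFL15 read the same 4.78 on both mutant arrays, between the wild-type values of 4.50 and 4.92. RALFL18, RALFL21, RALFL24, RALFL27, RALFL28 and RALFL29 also had overlapping groups, with differences of 0.01, -0.11, 0.10, -0.15, -0.05 and -0.07.

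The RTFL and DVL genes had the widest gaps between replicates, with a median larger gap of 0.47 against 0.28 over the 41 genes. RTFL18 read 2.61 and 2.10 in wild type and 2.14 and 2.23 in wrky43-1, a difference of -0.17 (SE 0.21). RTFL13 read 3.04 and 2.46 against 3.05 and 2.67, a difference of 0.11 (SE 0.26). Its neighbour in the reference annotation, DVL21, with no coding gene between them, differed by -0.08 (SE 0.21). RTFL14 alone had groups that did not overlap, at 2.31 and 2.38 in wild type and 2.24 and 2.26 in wrky43-1. RTFL7 differed by 0.03 (SE 0.13). The founding gene of the family, ROTUNDIFOLIA4, whose symbol the rule does not take, read 2.88 and 2.99 in wild type and 2.71 and 3.02 in wrky43-1. Of the IDL genes, IDL4 read 3.16 and 3.47 against 3.84 and 3.26 in wrky43-1 (0.24, SE 0.25), and IDL3 read 4.03 and 4.12 against 3.98 and 4.13 (-0.02, SE 0.13). Both had overlapping groups, and the smallest unadjusted p of these 7 genes was 0.389.

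In 12 of the 41 genes (29.3%) the difference between genotypes was greater than the larger of the gaps between replicates, against 35.1% of all genes with a probe set of their own. The share was 26.9% among genes no longer than the median peptide gene and 24.3% among genes below the array median on all 4 arrays. Those 12 comprised 6 CLE genes, 5 RALF genes and 1 RTFL gene. The 4 genes with a difference above 0.5 were all among them.

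**Figure D3:**
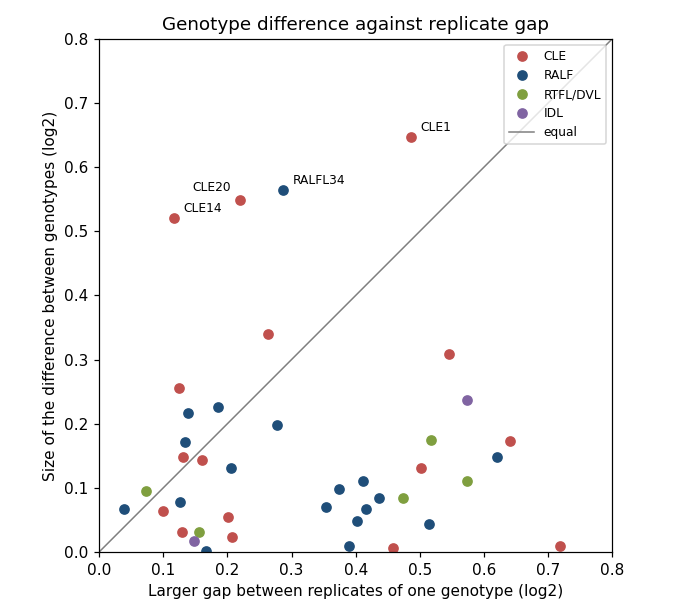
Size of the difference between genotypes (vertical axis, log2) against the larger of the gaps between 2 replicates of one genotype (horizontal axis, log2), 1 point for each of the 41 genes, coloured by family. The line marks equal values. CLE14, CLE20, RALFL34 and CLE1 stand above 0.5, and 12 of 41 genes lie above the line.

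Peptide genes are short, and most of their probe sets gave weak signals. Their genes span 162 to 2051 bp in the reference, introns included, with a median of 743 bp against 1905 bp over all genes. Of the 41 genes 31 (75.6%) lay below the array median on all 4 arrays, 8 lay above it on all 4, and 2 (CLE1 and RTFL7) lay on both sides. Among all genes 52.7% lay below on all 4, and among the 1884 genes no longer than 743 bp it was 83.9%. No detection calls were used here, so whether the transcripts of those 31 genes were above background is unknown, and values of different probe sets do not rank their transcripts. The 8 genes above the median were CLE16, CLE20, CLE25, CLE41, CLE42, RALFL15, RALFL31 and RALFL34. Of these 7 read higher in wrky43-1, with a median difference of 0.16, and 4 had groups that did not overlap, all of them higher. Counts of direction, here and over all genes, depend on how the arrays are scaled. The array medians were 4.427 and 4.402 in wrky43-1 and 4.344 and 4.339 in wild type, and CLE16 and RALFL15 differed by only 0.006 and 0.066. With all arrays set to one median, CLE20, RALFL34, RALFL31 and CLE41 differed by 0.475, 0.491, 0.144 and 0.075. Of the 6987 genes of the series above the array median on all 4 arrays, 48.3% read higher, the median difference was -0.01 and the groups did not overlap in 60.7%, 2029 of them higher. The 31 genes below the median had a median difference of -0.04, with 12 higher and 19 lower. By gene length, the median difference was 0.02 over the 9109 genes no longer than the longest peptide gene and -0.01 over the 1884 genes no longer than 743 bp, against -0.01 over all genes. The part of signal and of length in the peptide genes' values was not tested.

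On the receiving side of RALF signalling, 7 of 10 listed genes were measured. All 7 read lower in wrky43-1, as did 8702 of all 16548 genes, and the median log2 difference of the 7 was -0.54. In 5 the groups did not overlap, where 23.6% of all probe sets and 25.0% of all genes lay apart in that direction. LRX5 (AT4G18670), a leucine-rich repeat extensin that binds RALF peptides in the cell wall, read 7.47 and 7.69 in wild type and 6.77 and 6.37 in wrky43-1 (log2 difference -1.003, SE 0.19, limma adjusted p = 0.181). Its relative LRX4 (AT3G24480) read 7.25 and 7.49 against 6.70 and 6.55 (-0.74, SE 0.15, limma adjusted p = 0.187). LRE (AT4G26466), a membrane-anchored partner of FERONIA best known from the female gametophyte, read 3.02 and 3.15 against 2.51 and 2.57 (-0.54, SE 0.12). LRE lay below the array median on all 4 arrays. FERONIA itself (FER, AT3G51550), the receptor kinase for several RALF peptides, read 9.03 and 9.14 in wild type and 8.60 and 8.43 in wrky43-1 (-0.57, SE 0.13, limma adjusted p = 0.211). It was named after its values had been seen, as were the 3 genes of the next paragraph. In these 4 genes both mutant arrays lay below both wild-type arrays, at unadjusted limma p of 0.005 to 0.0108. At an unadjusted p under 0.05, 6.93% of all probe sets and 6.08% of all genes read lower. Of the 7 genes 0 passed the adjusted threshold.

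ANX1, a pollen receptor kinase of the same family, read 4.005 and 3.53 in wild type and 3.38 and 3.36 in wrky43-1 (-0.39, SE 0.20). Its difference was -0.16 without wild-type replicate 1 and -0.63 without wild-type replicate 2. THE1, which encodes THESEUS1, the receptor of RALF34, read 4.24 and 4.81 against 3.96 and 4.44 (-0.33, SE 0.28), with overlapping groups, and its difference was -0.61 without wild-type replicate 1 and -0.04 without wild-type replicate 2. ANX2 read 2.66 and 2.88 against 2.77 and 2.60 (-0.08, SE 0.15), and it read higher in wrky43-1 without wild-type replicate 2 (0.03) or without wrky43-1 replicate 2 (0.0028). Like LRE, ANX1 and ANX2 lay below the array median on all 4 arrays, and whether their signals were above background is unknown. Of the 7 genes 5 (LRX5, FER, ANX1, THE1 and ANX2) span 3235 to 3889 bp, longer than any of the 41 peptide genes. The median log2 difference was -0.07 over the 2014 genes of over 3000 up to 4000 bp. Of those 2014 genes 1289 read lower, and in 716 both mutant arrays lay below both wild-type arrays. LRX4 and LRE span 1682 and 1005 bp, and over the 5637 genes of over 1000 up to 2000 bp the median was 0.03. The part of gene length in the receptor genes' differences was not tested. The 18 RALF peptide genes themselves had a median difference of -0.02, with 8 higher and 10 lower. A difference between ligands and receptors as groups was not tested.

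**Figure D4:**
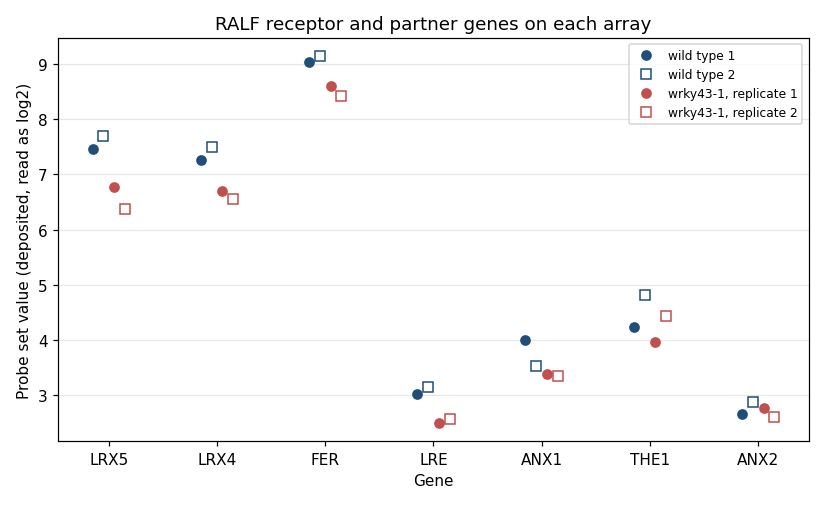
Deposited values, read as log2 (vertical axis), of the 7 measured RALF receptor and partner genes on each of the 4 arrays, ordered by the difference between genotypes. Blue marks are wild type and red marks wrky43-1. In LRX5, LRX4, FER, LRE and ANX1 both red marks lie below both blue marks.

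**Figure D5:**
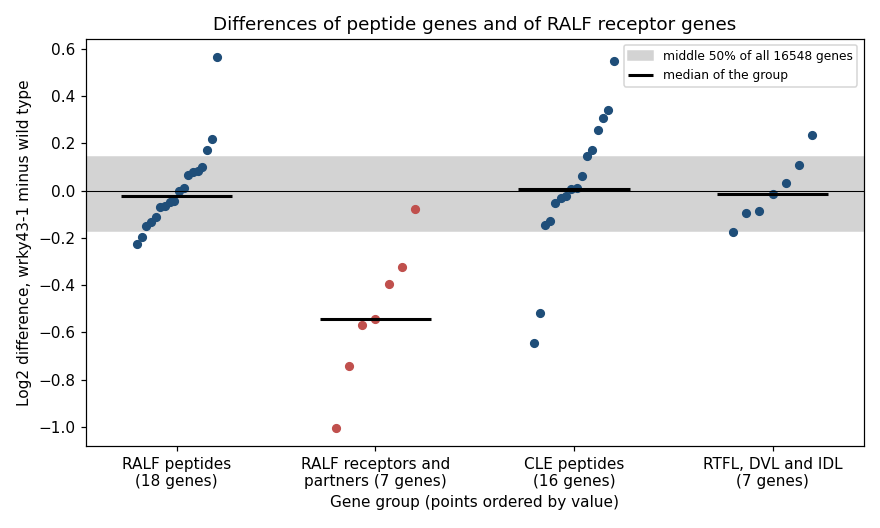
Log2 difference between genotypes (vertical axis, wrky43-1 minus wild type), 1 point per gene ordered by value, for 18 RALF peptides, 7 RALF receptors and partners, 16 CLE peptides and the 7 RTFL, DVL and IDL genes. Black lines are medians and the grey band holds the middle 50% of all 16548 genes. The median of the RALF receptors and partners is -0.54 and that of the RALF peptides -0.02.

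For the other families few partners were measured. Of 10 listed CLE receptor genes only ACR4, the receptor kinase linked to CLE40, had a probe set of its own, and it read 4.41 and 4.65 in wild type and 4.45 and 4.48 in wrky43-1 (log2 difference -0.07, SE 0.14). None of 4 EPFL receptors, 5 receptors for IDL and CEP peptides or 4 co-receptors was measured. SBT6.1, the subtilase also called site-1 protease that cuts some RALF precursors, read 6.62 on both wild-type arrays and 6.42 and 6.19 in wrky43-1 (-0.31, SE 0.14, limma adjusted p = 0.368). CLAVATA3 (CLV3), the stem-cell peptide after which CLE genes are named, read 2.33 and 2.36 in wild type and 2.21 and 2.52 in wrky43-1, with overlap.

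Gibberellin controls GASA genes, and of 11 listed genes of that hormone's pathway 4 were measured. All 4 read higher in wrky43-1, as did 50.2% of all probe sets and 47.4% of all genes. In 3 the groups did not overlap, where 24.5% of all probe sets and 21.7% of all genes lay apart in that direction. Of the 4 genes 0 passed the adjusted threshold. They were SLY1 (log2 difference 0.40), GID1A (0.32), GID1B (0.33) and GID1C (0.08). With all arrays set to one median they differed by 0.33, 0.25, 0.26 and 0.01. GID1C ran from -0.37 without wild-type replicate 2 to 0.54 without wild-type replicate 1. The late seed genes M17 and LTI30 differed by -0.50 and 0.33, and the green seedling genes LHCB4.1, RCA and PRK by -0.35, -0.16 and 0.67, of which PRK had overlapping groups. PRK read 3.53 and 3.92 in wild type and 5.05 and 3.74 in wrky43-1, and its difference was 0.02 without wrky43-1 replicate 1 and 1.33 without wrky43-1 replicate 2. The adjusted p of these 5 genes was 0.218 or more. The seed, pollen and root hair markers differed by -0.19 (PAP85), -0.09 (OLEO3), 0.02 (VGD1), -0.09 (VGDH1), -0.21 (EXPA7) and 0.18 (EXPA18).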

How the data were processed

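Total RNA was labelled with biotin and hybridised, 1 array per sample, per the labels' protocols. The authors deposited values of 38408 probe sets for each of 4 arrays, which were read as log2 from their range. Their scale, their normalization and the summary of probes are not given in the sources consulted. Precision is limited by the number of arrays. Of the probe sets 16722 had 1 gene, 759 several and 20927 none in the platform's annotation. All 41 members were found in TAIR10.1, 25 by gene ID and 16 by symbol. Wild type and wrky43-1 were set against each other with limma 3.58.1 (lmFit, eBayes, no trend, no block), run in R 4.3.3. Tests were two-sided, p-values were adjusted by Benjamini-Hochberg over the 38408 probe sets, and calls were made under 0.05. Residual and prior degrees of freedom were 2 and 2.34. The fit was tested on simulated data.

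The members and the gene lists were chosen with earlier results of these data known, so no test over a list was made. Array values are given for the 12 members with the smallest p, for the highest and lowest difference of each family, and for some others. Of the lists of related genes (RALF, CLE, EPFL, IDL and CEP receptors, co-receptors, peptide processing, other peptides, gibberellin, and seed, late seed, seedling, root hair and pollen markers) the 3 members with the smallest p are named, and further ones after their values were seen. Alternatives were the replicate number as a block, 2 other scalings, filters on low probe sets, other variance priors, array weights, other choices of probe sets and leaving out each array. Sequences were not used here.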

Additional observations from a re-analysis of the deposited data

How the results depend on the processing

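With 2 arrays per genotype and no detection calls, small differences of weak probe sets cannot be told from noise. No peptide gene passed the adjusted threshold under any alternative run (0 higher and 0 lower throughout, smallest adjusted p 0.0939, for CLE20 without the lowest 50 percent of probe sets). The counts at an unadjusted p under 0.05, 2 higher and 2 lower, were 3 and 2 among probe sets with 1 gene only and 2 and 0 without the lowest 50 percent, where 9 genes were left. The replicate block gave 2 and 2. In this balanced design a block cannot change a gene's difference, so the median stayed at -0.0012. Deviations of same-numbered arrays correlated at -0.026 over probe sets and at 0.089 over the 41 genes. These correlations cannot decide whether same-numbered arrays were paired, since a shared batch could act on some genes only. Leaving out each array gave 0 to 3 higher and 0 to 2 lower, with a median of -0.04 to 0.03. The median was 0.15 without the lowest 50 percent, which keeps other genes, and -0.07 with centring. Of 636 values of genes followed under alternatives 17 turned sign, all of genes that were not called. These 636 cover the 12 members with the smallest p, the highest and lowest difference of each family, and the measured genes of the lists. The other members were followed only through the split of the 41 genes by direction. That split went from 20 higher and 21 lower to 14 and 27 with centring, so some other members turned as well. Only the 2 other scalings and leaving out an array changed a gene's difference, so the remaining values could not turn sign. Of the 636 values, those that turned with centring were of CLV3 (-0.050) and VGD1 (-0.058). The others turned when 1 array was left out, over which IDL3 ranged from -0.090 to 0.057, IDL4 from -0.049 to 0.52, RTFL13 from -0.18 to 0.40, RTFL18 from -0.43 to 0.085, ROTUNDIFOLIA4 from -0.23 to 0.078, CLV3 from -0.13 to 0.18, ACR4 from -0.18 to 0.051, ANX2 from -0.19 to 0.030, GID1C from -0.37 to 0.54, EXPA18 from -0.050 to 0.41 and VGD1 from -0.089 to 0.12. The choices on repeated values and on probe sets among another chromosome left out none of the 41 genes.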
